A study of Mus musculus with 6 samples.

Results

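Langerhans cells, the antigen-presenting cells of the epidermis, were followed in single-cell transcriptomes of mouse dorsal skin. A cell barcode counted as a Langerhans cell when it held at least 2 UMIs of Cd207, at least 2 UMIs of Epcam and Mfge8 together, and at least 20 UMIs per 10000 of Cd74, H2-Aa and H2-Ab1 together. It also had to hold 0 UMIs of Xcr1, under 20 UMIs per 10000 of the keratins Krt5 and Krt14, and under 10 per 10000 of the collagens Col1a2 and Col3a1. A UMI marks a single captured RNA molecule. The rule found 381 cells among 50850 kept cells, or 0.749% (exact 95% interval 0.676% to 0.828%, counting error only), and the kept cells came from 55201 deposited barcodes. The members were thus chosen from their own expression, so the levels of these 11 rule genes are a description and were left out of every count of changed genes.

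The cells came from 6 libraries in 3 groups of 2, all from female C57BL/6 mice aged 8 to 10 weeks. The Sham group had no treatment. In the IMQ group, 62.5 mg of cream with 5% imiquimod was spread daily for 4 days, which induces a psoriasis-like inflammation. IMQ+SHP099 mice received the same cream and, by gavage, SHP099 at 10 mg/kg each day. Treated mice were killed 1 day after the last dose. Imiquimod is an agonist of the receptor TLR7, and SHP099 is an allosteric inhibitor of the phosphatase SHP2, encoded by Ptpn11. The study used these groups to ask what the inhibitor changes in inflamed skin. Each library pooled the skin of several mice, so mice could not be told apart, and p-values measure only the spread between libraries.

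Langerhans cells arise from embryonic precursors, renew themselves in the epidermis and sit between keratinocytes, to which they adhere through E-cadherin. They depend on TGF-beta signalling and on the receptor CSF1R, whose epidermal ligand is IL-34. Langerin, the product of Cd207, is a lectin that forms the Birbeck granules of these cells. On activation they take up antigen, mature and travel through the lymph vessels to lymph nodes under the guidance of CCR7. In psoriasis-like skin they are one of several candidate sources of IL-1 and IL-23 family cytokines.

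The 6 libraries gave 110 and 25 Langerhans cells (Sham replicates 1 and 2), 66 and 51 (IMQ) and 107 and 22 (IMQ+SHP099). Their summed UMIs ranged from 259919 in IMQ+SHP099 replicate 2 to 1324452 in IMQ replicate 1. The median Langerhans cell held 6038 UMIs in Sham replicate 1 and 10006 to 19312 UMIs in the other libraries, so shares of cells with a UMI are given after each cell was thinned to 3000 UMIs. Pairs of libraries shared 12 to 30 barcodes, at most 0.391% of a library, and no Langerhans cell barcode was shared. None of the 381 cells had a Scrublet doublet score over 0.3. The keratin limit removed 228 otherwise fitting cells from Sham replicate 1, 43 from IMQ+SHP099 replicate 1, 13 from Sham replicate 2, 2 from IMQ replicate 1 and 0 from the other libraries. Near the thresholds, 17 members held exactly 2 Cd207 UMIs, while 16 cells with 1 Cd207 UMI fell outside. A further 7 members had a keratin level of 10 to 20 per 10000, against 14 excluded cells at 20 to 40 and 272 above 40.

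The label was checked against markers that the rule did not use. H2-M2, a nonclassical MHC class I gene typical of Langerhans cells, was detected in 355 of the 381 cells (93.2%). Its level was 978 and 1369 UMIs per 1000000 UMIs (unscaled CPM) in the Langerhans cells of the Sham libraries, against 48.8 and 24.1 in other MHC class II cells of the same libraries. Those other cells, 1288 in all, passed the same MHC class II, keratin and collagen limits but had 0 UMIs of Cd207 and of the B cell genes Cd79a and Ms4a1. The growth factor receptor gene Csf1r was detected in 349 members, Cd24a in 321, the E-cadherin gene Cdh1 in 287 and Ly75, the endocytic receptor DEC-205, in 249. Cd24a, Cdh1 and Ly75 are given as detection counts only. Csf1r stood at 495 and 673 unscaled CPM in the Langerhans cells of the Sham libraries. It stood at 53.9 and 202 in the other MHC class II cells and at 164 and 607 in C1q macrophages (defined below). In Sham replicate 2 it thus hardly set the members apart from macrophages. Lyz2, the lysozyme gene of monocytes and macrophages, was found in 41 cells, and Clec9a, a marker of conventional type 1 dendritic cells, in 0 of 381 cells, which allows up to 0.787% of cells with a captured Clec9a UMI and sets no limit on cells that express the gene. The T cell gene Cd3e was found in 7 cells and the basal keratin gene Krt14, limited by the rule, in 208. C1qa, a complement gene used here as a macrophage marker, was found in 300 of the 381 cells, so it did not set these cells apart from macrophages.

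Outside the members, at least 2 UMIs of Cd207 were found in 5.17% and 1.10% of keratin-rich cells of the Sham libraries. The shares were 0.147% and 0.116% in IMQ skin and 0.899% and 0% in IMQ+SHP099 skin. The collagen-rich cells had at least 2 Cd207 UMIs in at most 0.503% of a library and T cells in 0% of every library. Keratin-rich and collagen-rich cells are those at or above the limits of 20 and 10 per 10000, and T cells those with at least 2 UMIs of Cd3e and Cd3g and without MHC class II. Keratin-rich barcodes of Sham replicate 1 thus carried Cd207 more often than those of any other library. Of those with at least 2 Cd207 UMIs, 228 of 250 met every limit of the rule but the keratin one. The same held for 13 of 14 in Sham replicate 2 and 43 of 51 in IMQ+SHP099 replicate 1. The collagen limit alone kept out 10 of 10 such collagen-rich cells in IMQ+SHP099 replicate 1 and 1 of 4 in Sham replicate 2. These shares are therefore no background of cells that lack Cd207.

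As a share of all kept cells, Langerhans cells did not separate the groups. They made up 1.28% and 0.304% of the Sham libraries, 0.860% and 0.495% of the IMQ libraries and 1.23% and 0.298% of the IMQ+SHP099 libraries. Replicates of a group differed by more than the groups did, and the difference of IMQ minus Sham was −0.115 percentage points (exact two-sided permutation test, p = 1). At 2 libraries a group, this test cannot give a p below 0.333.

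Set against the keratinocytes of the same library, the picture depended on the keratin limit. There were 2.28 and 1.97 Langerhans cells per 100 keratin-rich cells in Sham skin, 4.87 and 5.94 in IMQ skin and 1.89 and 4.94 in IMQ+SHP099 skin. The IMQ libraries lay above both Sham libraries by a mean of 3.28 (exact two-sided permutation test, p = 0.333, the smallest possible). When cells over the keratin limit were counted as well, the share of kept cells in IMQ minus Sham became −1.51 percentage points and that in IMQ+SHP099 minus Sham −1.19. Per 100 keratin-rich cells, an alternative chosen after seeing the data, the values were then 6.99 and 3.00 in Sham skin, 5.01 and 5.94 in IMQ skin and 2.64 and 4.94 in IMQ+SHP099 skin. The IMQ and Sham libraries then overlapped.

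**Figure D1:**
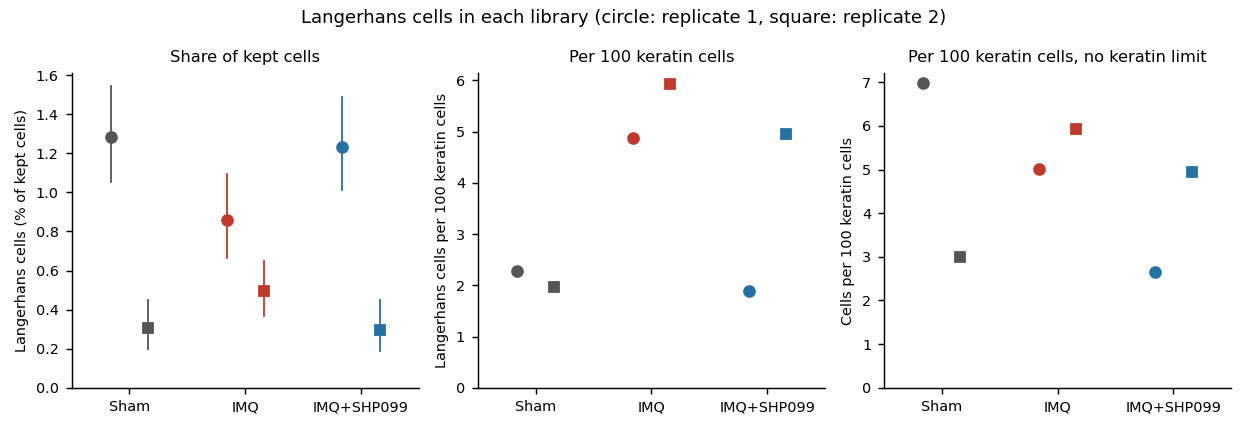
Langerhans cells per library as a percentage of all kept cells with exact 95% intervals (left), per 100 keratin-rich cells (middle) and per 100 keratin-rich cells with no keratin limit on the Langerhans cells (right), for the Sham, IMQ and IMQ+SHP099 libraries (circle, replicate 1, square, replicate 2). The groups overlap on the left, and the IMQ libraries stand above Sham in the middle (4.87 and 5.94 against 2.28 and 1.97). On the right the IMQ and Sham libraries overlap, and both IMQ+SHP099 libraries lie below both IMQ libraries.

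The genes that define the cells are given next as levels, in counts per 1000000 UMIs (CPM) with library sizes scaled by TMM, and without a test. Cd207 stood at 5885 and 2541 CPM in the Sham libraries, 1584 and 1609 CPM in the IMQ libraries and 4658 and 2172 CPM in the IMQ+SHP099 libraries. Mfge8, which encodes a bridging protein for the uptake of dying cells, stood at 5241 and 4931 CPM in the Sham libraries, 16606 and 16934 CPM in the IMQ libraries and 21055 and 17316 CPM in the IMQ+SHP099 libraries. All 4 treated libraries held more than 3 times the Mfge8 level of either Sham library, while Cd207 was lower in both IMQ libraries than in either Sham library and overlapped Sham in IMQ+SHP099. Epcam, the adhesion molecule gene, stood at 1160.5 and 811 CPM in the Sham libraries, 1105 and 938 CPM in the IMQ libraries and 894 and 1056 CPM in the IMQ+SHP099 libraries, with all groups overlapping. The invariant chain gene Cd74 stood at 46434 and 24914 CPM in the Sham libraries, 32526 and 31701 CPM in the IMQ libraries and 30251 and 28776 CPM in the IMQ+SHP099 libraries. Sham replicate 1 was the highest library for Cd207, Epcam and Cd74. H2-M2 was not a rule gene and stood at 1048 and 1207 CPM in the Sham libraries, 743 and 437 CPM in the IMQ libraries and 1109 and 399 CPM in the IMQ+SHP099 libraries. The IMQ values lay below both Sham values, but the difference missed the threshold (log2 fold change -0.93 ± 0.45, edgeR adjusted p = 0.427).

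Langerhans cells of imiquimod-treated skin differed from those of Sham skin in a small set of genes. Of 6881 genes tested besides the rule genes, 86 (1.25%) passed a Benjamini-Hochberg adjusted p of 0.05 in edgeR's quasi-likelihood test, 51 higher (0.741%) and 35 lower (0.509%) in IMQ. At an unadjusted p of 0.05 the count was 893. Among the genes that met the rule for naming, the largest rises were in the cytokine gene Il1b, the surface protein gene Plet1, the retinol carrier gene Rbp4, the stefin family gene 2010005H15Rik and the arginine synthesis gene Ass1. The counts rested on few libraries: leaving out Sham replicate 1, Sham replicate 2, IMQ replicate 1, IMQ replicate 2 or IMQ+SHP099 replicate 1 gave 41, 192, 4, 24 and 55 calls. The 4 genes called without IMQ replicate 1 were Plet1, Rbp4, 2010005H15Rik and Ass1, and these were called whichever library of the 2 groups was left out.

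Il1b encodes interleukin-1 beta, a cytokine that drives inflammation and is released after caspase cleavage. Its level was 111 and 115 CPM in the Sham libraries, 2047 and 1415 CPM in the IMQ libraries and 5722 and 1503 CPM in the IMQ+SHP099 libraries. Both Sham libraries lay close together and every treated library was more than 10 times higher. The rise in IMQ was 15.3-fold (log2 fold change 3.94 ± 0.59, edgeR adjusted p = 0.0124), and the call was lost without Sham replicate 1 (edgeR adjusted p = 0.0758) or IMQ replicate 1 (edgeR adjusted p = 0.104). In all kept cells of the libraries the mean level was 56.8 CPM in Sham and 116 CPM in IMQ. After thinning, Il1b was found in 6% and 8% of Langerhans cells in Sham skin, 63.1% and 58% in IMQ skin and 71.2% and 54.5% in IMQ+SHP099 skin. Without thinning the shares were 6.36% and 12%, 72.7% and 68.6%, and 77.6% and 59.1%. The thinned share in collagen-rich cells, which serve here as a background, was at most 1.28%. The share in every treated library lay above both Sham shares.

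Plet1 encodes a surface protein anchored by a lipid, known in hair follicle epithelium and linked to the migration of dendritic cells. Its level was 46.4 and 9.08 CPM in the Sham libraries, 945 and 966 CPM in the IMQ libraries and 849 and 705 CPM in the IMQ+SHP099 libraries. The 2 IMQ libraries differed little from each other, and the groups did not overlap (30.7-fold, log2 fold change 4.94 ± 0.52, edgeR adjusted p = 0.00257). Thinned shares of Langerhans cells with a Plet1 UMI were 7% and 4% in Sham skin, 72.3% and 68% in IMQ skin and 68.3% and 59.1% in IMQ+SHP099 skin, against at most 2.0% of collagen-rich cells. Plet1 was also present outside these cells, with a mean of 185 CPM in all kept Sham cells and 130.2 CPM in all kept IMQ cells, so its bulk level did not follow that of the Langerhans cells.

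Rbp4 encodes the carrier of retinol, or vitamin A, in blood. It stood at 25.5 and 0 CPM in the Sham libraries, 1234 and 1279.5 CPM in the IMQ libraries and 915 and 568 CPM in the IMQ+SHP099 libraries. The IMQ level was 79.7-fold higher (log2 fold change 6.32 ± 0.69, edgeR adjusted p = 0.00257). Its thinned share was 6% and 0% in Sham skin, 70.8% and 56% in IMQ skin and 57.7% and 50% in IMQ+SHP099 skin. The same share in collagen-rich cells ranged from 3.65% to 5.99%, so the Sham share lay at the level of that background.

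The gene 2010005H15Rik, named Csta2 in RefSeq, belongs to the stefins, inhibitors of cysteine proteases, and lies at chr16:36221468-36257444 in GRCm38. Its near-identical relatives in the same cluster mean that reads could be split among copies. It had 0 UMIs in both Sham libraries, 333 and 282 CPM in the IMQ libraries and 224 and 165 CPM in the IMQ+SHP099 libraries. Against a floor of 3 UMIs over the Sham group, the level was at least 104-fold higher in IMQ and at least 70.8-fold higher in IMQ+SHP099 (edgeR adjusted p = 0.000473 and 0.00126). Thinned shares were 0% and 0%, 29.2% and 28%, and 25% and 22.7%.

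Ass1 encodes argininosuccinate synthase, which makes arginine from citrulline. It stood at 12 and 6.05 CPM in the Sham libraries, 227 and 228 CPM in the IMQ libraries and 121 and 141 CPM in the IMQ+SHP099 libraries. The 2 IMQ libraries were nearly equal and lay 22.8-fold above Sham (log2 fold change 4.51 ± 0.39, edgeR adjusted p = 0.000807).

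**Figure D2:**
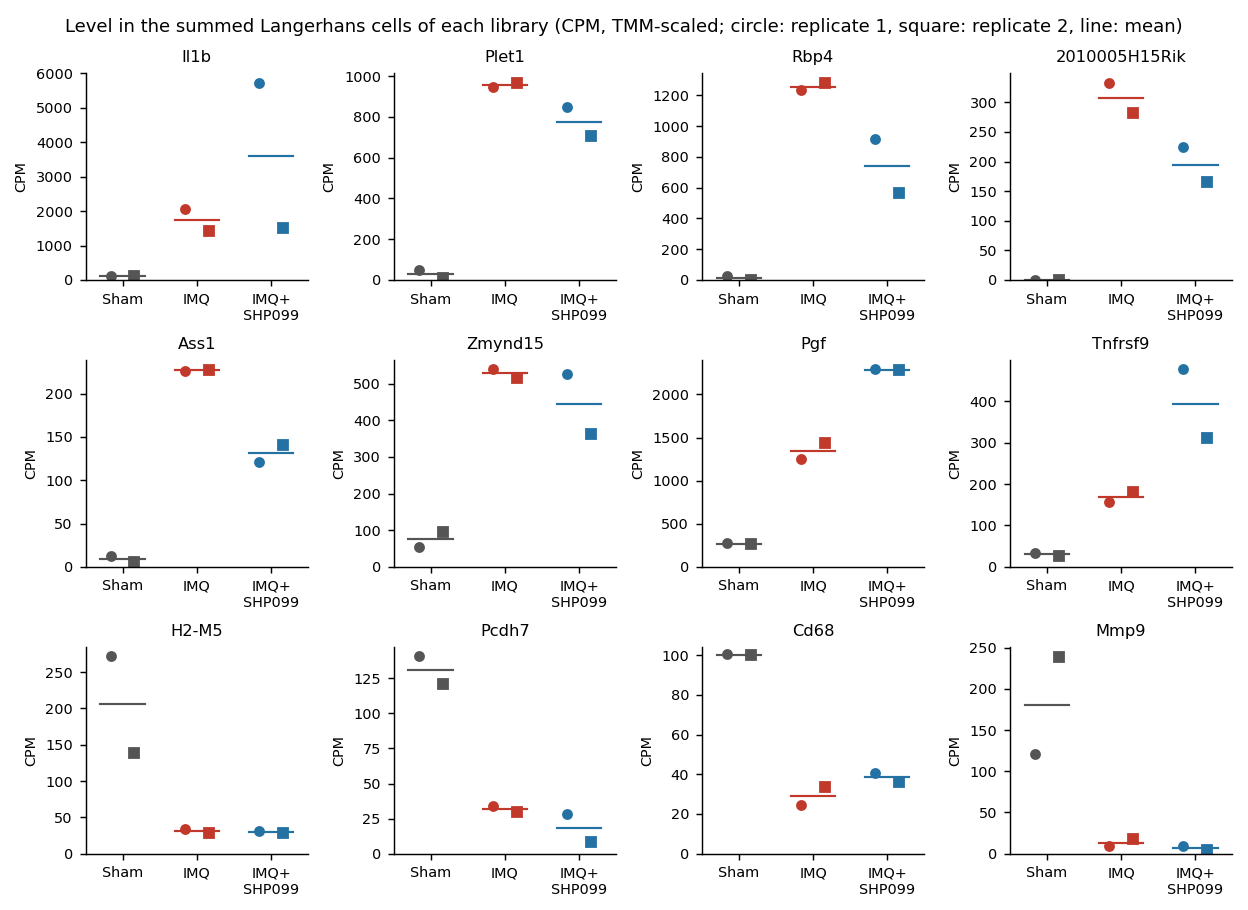
Levels of 12 genes in the summed Langerhans cells of each library, in TMM-scaled CPM, with 1 point per library and a line at the group mean. The first 8 genes, from Il1b to Tnfrsf9, are higher in all 4 treated libraries than in Sham, and H2-M5, Pcdh7, Cd68 and Mmp9 are lower.

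**Figure D3:**
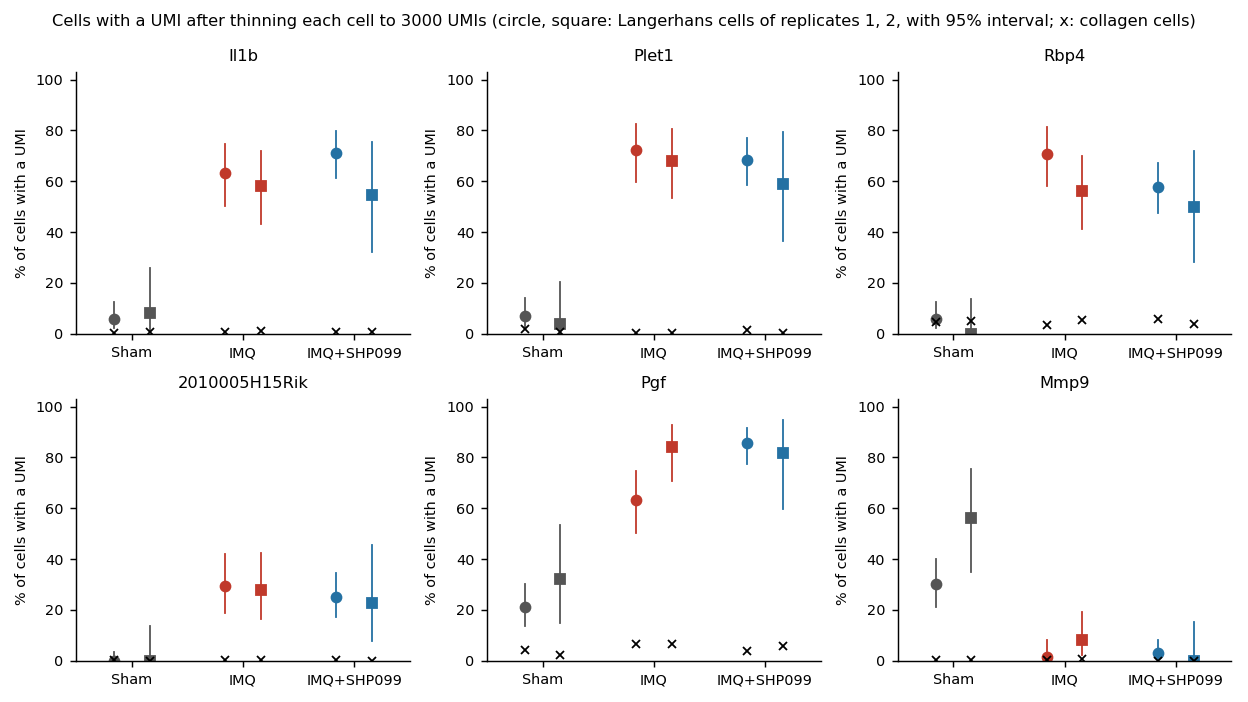
Share of Langerhans cells with at least 1 UMI of 6 genes after thinning each cell to 3000 UMIs, with exact 95% intervals, and the same share in collagen-rich cells (crosses). Il1b, Plet1 and Rbp4 are found in 50% to 72.3% of treated Langerhans cells and in at most 8% of Sham ones, while Mmp9 goes the other way.

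The sequences upstream of 3 of these genes are shown because their levels moved together, so that a reader can see the letters next to the start sites. All are RefSeq promoter windows of GRCm38.p6 on the gene's own strand, 250 bases that end just before the annotated start, with Il1b on the minus strand at chr2:129371140-129371389, Plet1 on the plus strand at chr9:50494275-50494524, and both annotated starts of Rbp4 on the minus strand at chr19:38125322-38125571 and chr19:38124812-38125061. Capitals mark every match, on either strand, to 6 short motifs: the TATA box (TATAAA), AP-1 (TGANTCA), kappaB (GGGNNNNNCC), C/EBP (TTGCNNAA), PU.1 (GAGGAAGT) and RUNX (TGTGGTT).
Il1b: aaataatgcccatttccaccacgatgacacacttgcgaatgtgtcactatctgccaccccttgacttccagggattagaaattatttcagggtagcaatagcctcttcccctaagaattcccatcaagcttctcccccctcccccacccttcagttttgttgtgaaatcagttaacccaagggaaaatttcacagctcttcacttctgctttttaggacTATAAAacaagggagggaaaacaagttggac
Plet1: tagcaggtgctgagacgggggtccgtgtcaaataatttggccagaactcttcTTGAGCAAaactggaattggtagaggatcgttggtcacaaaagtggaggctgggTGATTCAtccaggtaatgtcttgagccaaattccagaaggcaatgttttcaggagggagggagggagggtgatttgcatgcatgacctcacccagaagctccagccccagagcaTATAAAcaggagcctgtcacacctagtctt
Rbp4 start 1: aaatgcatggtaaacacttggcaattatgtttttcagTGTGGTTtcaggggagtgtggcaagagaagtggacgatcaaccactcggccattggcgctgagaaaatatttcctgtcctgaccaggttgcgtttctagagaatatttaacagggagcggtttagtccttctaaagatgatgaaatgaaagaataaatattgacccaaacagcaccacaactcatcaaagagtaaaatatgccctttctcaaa
Rbp4 start 2: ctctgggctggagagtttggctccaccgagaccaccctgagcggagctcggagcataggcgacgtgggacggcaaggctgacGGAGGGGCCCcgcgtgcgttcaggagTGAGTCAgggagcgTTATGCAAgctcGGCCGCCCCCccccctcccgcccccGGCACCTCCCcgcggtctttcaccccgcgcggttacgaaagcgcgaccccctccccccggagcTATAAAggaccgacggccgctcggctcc

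Il1b, Plet1 and the second Rbp4 start held a TATA box 31, 30 and 28 bases before the start. This motif occurred in 12.4% of 32851 promoter windows of that length. AP-1 and C/EBP matches were found in the windows of Plet1 and of the second Rbp4 start, against 6.75% and 9.56% of all windows. The kappaB letters, which 45.8% of windows hold, matched at 3 positions before the second Rbp4 start and nowhere in this Il1b window. The RUNX letters (4.40% of windows) matched before the first Rbp4 start, and the PU.1 letters (2.44%) in none of the 4 windows. A match or its absence describes letters only.

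The other rises that the rule for naming picked in IMQ were smaller. The rule took the genes of largest change with a mean of at least 50 CPM, no overlap between groups and a level no lower than in all kept cells, leaving out markers of other cell types. These genes were Rrad, Ltb, Zmynd15, Tspan18 and Cmtm7. Zmynd15, a zinc finger gene, stood at 55.4 and 93.8 CPM in the Sham libraries, 540.1 and 516 CPM in the IMQ libraries and 526 and 363 CPM in the IMQ+SHP099 libraries (log2 fold change 2.86 ± 0.36, edgeR adjusted p = 0.00592). Ltb, which encodes lymphotoxin beta, a membrane ligand of the TNF family, stood at 16.5 and 12.1 CPM in the Sham libraries, 115 and 112 CPM in the IMQ libraries and 121 and 76.6 CPM in the IMQ+SHP099 libraries (log2 fold change 2.92 ± 0.39, edgeR adjusted p = 0.00663). The small GTPase gene Rrad rose 9.36-fold (log2 fold change 3.23 ± 0.52, edgeR adjusted p = 0.0194), the tetraspanin gene Tspan18 6.97-fold (edgeR adjusted p = 0.00523) and the membrane protein gene Cmtm7 6.96-fold (edgeR adjusted p = 0.00663). In each of these genes the IMQ+SHP099 libraries also lay above both Sham libraries. Of the 20 genes that the rule named in this contrast, 10, 4 and 9 kept their call without Sham replicate 1, IMQ replicate 1 and IMQ replicate 2.

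The genes that the same rule named for a fall changed by less than the 5 leading rises. H2-M5, another nonclassical MHC class I gene, went from 273 and 139 CPM in Sham to 34.3 and 28.6 CPM in IMQ and 31.3 and 28.2 CPM in IMQ+SHP099 (6.58-fold lower in IMQ, log2 fold change -2.72 ± 0.37, edgeR adjusted p = 0.00670). Cd68, which encodes a lysosomal glycoprotein of macrophages and dendritic cells, stood at 100.3 and 99.8 CPM in the Sham libraries, 24.7 and 33.8 CPM in the IMQ libraries and 40.8 and 36.3 CPM in the IMQ+SHP099 libraries (log2 fold change -1.79 ± 0.31, edgeR adjusted p = 0.0224). Pcdh7, a protocadherin gene, stood at 141 and 121 CPM in the Sham libraries, 34.3 and 29.9 CPM in the IMQ libraries and 28.5 and 8.06 CPM in the IMQ+SHP099 libraries (log2 fold change -2.02 ± 0.36, edgeR adjusted p = 0.0236). All 3 separated the 4 treated libraries from Sham. The remaining named genes that fell were the ATP-gated channel gene P2rx2, the adenylyl cyclase gene Adcy7, the actin regulator gene Raph1, the G protein subunit gene Gng2, and Rassf4, N4bp1 and Tmco3. Their log2 fold changes ran from -1.82 in P2rx2 to -1.51 in Tmco3 (edgeR adjusted p = 0.0236 and 0.0473). In DESeq2 the calls of Cd68, P2rx2, Adcy7, Raph1 and Tmco3 were lost (adjusted p = 0.0536 for Adcy7 to 0.186 for Tmco3), and those of N4bp1 and Tmco3 were lost when Sham and IMQ alone were fitted (edgeR adjusted p = 0.0671 and 0.0689). N4bp1 also lost its call with at least 1 Cd207 UMI required (0.0514) and Tmco3 with a keratin limit of 5 per 10000 (0.0610).

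Markers of other cell types were followed in the same sums. Mmp9, a matrix metalloprotease gene fixed here as a neutrophil marker, stood at 121 and 239 CPM in the Sham libraries, 8.78 and 18.2 CPM in the IMQ libraries and 9.49 and 4.03 CPM in the IMQ+SHP099 libraries (log2 fold change -3.76 ± 0.46, edgeR adjusted p = 0.00523) and was thus highest in untreated Langerhans cells. Its thinned share was 30% and 56% in Sham skin, 1.54% and 8% in IMQ skin and 2.88% and 0% in IMQ+SHP099 skin. S100a8 and S100a9, the alarmin genes that fill neutrophils, had 0 UMIs in Sham Langerhans cells, and S100a8 stood at 177 and 37.7 CPM in IMQ against a mean of 6699 CPM in all kept cells. Both were called higher, at least 41.3-fold and at least 48.2-fold against a floor of 3 UMIs over the Sham group (edgeR adjusted p = 0.0356 and 0.0473), bounds above the fold change of Il1b. Dsp, a desmosome gene and keratinocyte marker, was called lower, from 97.3 and 18.2 CPM to 3.99 and 2.60 CPM (edgeR adjusted p = 0.0236). The 7 neutrophil markers summed to 124 to 239 CPM in the Langerhans cells of Sham, 108 to 393 CPM in IMQ and 109 to 366 CPM in IMQ+SHP099, while in all kept cells they summed to 9.56 to 15 CPM in Sham and 10614 to 28248 CPM in the treated libraries. The 12 keratinocyte markers summed to 263 to 4796 CPM, 121 to 345 CPM and 157 to 664 CPM in the 3 groups. Macrophage markers (8 genes) summed to 400 to 965 CPM in Sham skin, 701 to 878 CPM in IMQ skin and 648 to 907 CPM in IMQ+SHP099 skin, and fibroblast markers (8 genes) to 995 to 1003, 798 to 1013 and 552 to 796 CPM. Of the 86 genes called, 21 stood below their level in all kept cells in the group where they were higher, 7 among those higher and 14 among those lower in IMQ. The part that RNA from other cells had in these calls was not tested.

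The lists below hold 286 genes found in the files and were read against the share of 1.25% called among all genes. Among genes of Langerhans identity, transcription factors and the TGF-beta and CSF1R pathways, none passed in any contrast. The medians of the log2 fold change in IMQ were 0.23 over 10 tested identity genes, 0.31 over 14 transcription factors and 0.07 over 12 maintenance genes, against −0.00 over all genes. Runx3, a transcription factor that Langerhans cells require, stood at 584 and 424 CPM in the Sham libraries, 363 and 334 CPM in the IMQ libraries and 475 and 548 CPM in the IMQ+SHP099 libraries (log2 fold change -0.54 ± 0.29, edgeR adjusted p = 0.490). Id2, another factor they require, overlapped between all groups at 551 and 487 CPM in Sham and 663 and 393 CPM in IMQ (log2 fold change 0.02 ± 0.33, edgeR adjusted p = 0.991). Spi1, which encodes the myeloid factor PU.1, stood at 632 and 424 CPM in the Sham libraries, 549 and 511 CPM in the IMQ libraries and 550.3 and 395 CPM in the IMQ+SHP099 libraries, and these libraries overlapped too. Csf1r, the receptor for IL-34, stood at 530.1 and 593 CPM in the Sham libraries, 692 and 757 CPM in the IMQ libraries and 587 and 564 CPM in the IMQ+SHP099 libraries (log2 fold change 0.37 ± 0.28, edgeR adjusted p = 0.654). The TGF-beta receptor genes Tgfbr1 and Tgfbr2 did not pass either. Tgfbr1 stood at 27.0 and 60.5 CPM in Sham and 19.9 and 22.1 CPM in IMQ (edgeR adjusted p = 0.522), and Tgfbr2 at 7.49 and 42.4 CPM and 14.4 and 14.3 CPM (edgeR adjusted p = 0.807).

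Antigen presentation genes showed no call. Over 8 tested MHC class II genes besides the rule genes the median log2 fold change in IMQ was −0.09, and over 13 MHC class I genes it was 0.37. H2-Eb1, a beta chain of MHC class II, stood at 15191 and 8643 CPM in the Sham libraries, 11092 and 11474 CPM in the IMQ libraries and 11767 and 13653 CPM in the IMQ+SHP099 libraries (log2 fold change -0.08 ± 0.40, edgeR adjusted p = 0.959). The immunoproteasome gene Psmb8 stood at 314 and 269 CPM in the Sham libraries, 857 and 698 CPM in the IMQ libraries and 850.1 and 536 CPM in the IMQ+SHP099 libraries, with both IMQ libraries above Sham (log2 fold change 1.41 ± 0.33, edgeR adjusted p = 0.0732).

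Of 18 tested maturation and migration genes, 1 rose in IMQ and 0 fell. It was Cd80, which encodes a costimulatory ligand for T cells, at 4.49 and 12.1 CPM in the Sham libraries, 36.7 and 75.4 CPM in the IMQ libraries and 77.8 and 52.4 CPM in the IMQ+SHP099 libraries (log2 fold change 2.90 ± 0.59, edgeR adjusted p = 0.0473). The Cd80 call was lost when Sham and IMQ alone were fitted (edgeR adjusted p = 0.0873), with at least 1 Cd207 UMI required in place of 2 (0.0748), with a keratin limit of 5 per 10000 (0.0774), without cells that held a Mki67 or Top2a UMI (0.0837) and in 5 of the 6 fits with 1 library left out. Cd86, which encodes the related ligand, stood at 479 and 348 CPM in the Sham libraries, 535 and 466 CPM in the IMQ libraries and 573 and 596 CPM in the IMQ+SHP099 libraries (log2 fold change 0.27 ± 0.29, edgeR adjusted p = 0.779). Cd83, a surface marker of mature dendritic cells, stood at 506 and 1461 CPM in the Sham libraries, 895 and 814 CPM in the IMQ libraries and 1996 and 850.3 CPM in the IMQ+SHP099 libraries (log2 fold change -0.20 ± 0.50, edgeR adjusted p = 0.915). Ccr7 varied from 22.5 and 372 CPM in Sham to 339.8 and 178 CPM in IMQ and 467 and 72.5 CPM in IMQ+SHP099, a spread within groups larger than that between them (log2 fold change 0.47 ± 0.96, edgeR adjusted p = 0.889).

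Cytokine and chemokine genes had the largest positive median of these lists, 1.69 over 16 tested genes, and 2 of the 16 passed, both higher in IMQ. Besides Il1b, this was Ccl4, which encodes an inflammatory chemokine, at 13.5 and 45.4 CPM in the Sham libraries, 334 and 116 CPM in the IMQ libraries and 124 and 84.6 CPM in the IMQ+SHP099 libraries (8.58-fold, edgeR adjusted p = 0.0402). The Ccl4 call was lost when Sham and IMQ alone were fitted (edgeR adjusted p = 0.0873), with at least 1 Cd207 UMI required (0.145), without cells that held a Mki67 or Top2a UMI (0.133) and in 4 of the 6 fits with 1 library left out. Cxcl2, a chemokine gene for neutrophils, stood at 1688 and 2308 CPM in the Sham libraries, 5345 and 1321 CPM in the IMQ libraries and 15111 and 5396 CPM in the IMQ+SHP099 libraries (log2 fold change 0.74 ± 0.63, edgeR adjusted p = 0.710). The Sham and IMQ libraries overlapped for Cxcl2, with IMQ replicate 2 the lowest of all 6. Il23a, the IL-23 subunit gene, was low at 2.99 and 0 CPM in the Sham libraries, 40.7 and 1.30 CPM in the IMQ libraries and 23.7 and 0 CPM in the IMQ+SHP099 libraries, so within each group 1 library held nearly all of its 79 UMIs. The ratio of IMQ to Sham was 12.8 with a counting interval of 3.38 to 109, and the test was not passed (edgeR adjusted p = 0.389). Among 14 receptor genes, Ccr1 was higher in IMQ at 27.9 and 33.8 CPM against 1.5 and 3.03 CPM in Sham and 5.69 and 12.1 CPM in IMQ+SHP099 (edgeR adjusted p = 0.0250). With 2 Sham UMIs in all, its ratio of IMQ to Sham was 15.1 with a counting interval of 3.99 to 127. The Ccr1 call was lost in DESeq2 (adjusted p = 0.162), without cells that held a Mki67 or Top2a UMI (edgeR adjusted p = 0.0678) and in 3 of the 6 fits with 1 library left out. The decoy receptor gene Il1r2, whose product binds IL-1 without signalling, stood at 1824 and 1658 CPM in the Sham libraries, 854 and 1252 CPM in the IMQ libraries and 3011 and 1930.2 CPM in the IMQ+SHP099 libraries (log2 fold change -0.73 ± 0.35, edgeR adjusted p = 0.425).

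Genes of nucleic acid sensing and SHP2 matter because imiquimod acts on TLR7. Tlr7 had 0 UMIs among the 4515021 UMIs of the 381 cells, which allows up to 0.664 unscaled CPM over these cells and sets no limit on the share that express the gene, and Tlr1, Tlr3 and Tlr8 also had 0. C1q macrophages, 563 cells with at least 10 UMIs per 10000 of C1qa, C1qb and C1qc and 0 UMIs of Cd207, held 2 and 59 Tlr7 UMIs in the Sham libraries, 13 and 12 in IMQ skin and 0 and 3 in IMQ+SHP099 skin. Unc93b1, which encodes the chaperone that carries these receptors to endosomes, had 15 UMIs in Langerhans cells, at 6.99 and 30.9 unscaled CPM in Sham skin, 0 and 0 in IMQ skin and 0.869 and 0 in IMQ+SHP099 skin. The same gene stood at 716 and 689, 636 and 689 and 745 and 754 in C1q macrophages. Because the cell classes were built from other genes of the same cells, these levels are given without a test.

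Of 11 tested genes of this list, 1 rose in IMQ and 0 fell. It was Myd88, the adaptor gene shared by Toll-like and IL-1 receptors, at 22.5 and 21.2 CPM in the Sham libraries, 79.8 and 66.3 CPM in the IMQ libraries and 52.2 and 64.5 CPM in the IMQ+SHP099 libraries (log2 fold change 1.73 ± 0.34, edgeR adjusted p = 0.0356). The Myd88 call was lost in DESeq2 (adjusted p = 0.173), when Sham and IMQ alone were fitted (edgeR adjusted p = 0.0615), with at least 1 Cd207 UMI required (0.0535), without cells that held a Mki67 or Top2a UMI (0.0794) and in 5 of the 6 fits with 1 library left out. Ptpn11 itself stood at 29.9 and 42.4 CPM in the Sham libraries, 38.3 and 58.5 CPM in the IMQ libraries and 48.4 and 64.5 CPM in the IMQ+SHP099 libraries, and the Sham and IMQ libraries overlapped (log2 fold change 0.45 ± 0.37, edgeR adjusted p = 0.704). Both IMQ+SHP099 libraries lay above Sham, without passing the test (log2 fold change 0.63 ± 0.39, edgeR adjusted p = 0.549). The related phosphatase gene Ptpn6 stood at 205 and 233 CPM in the Sham libraries, 271 and 313 CPM in the IMQ libraries and 189.8 and 222 CPM in the IMQ+SHP099 libraries (log2 fold change 0.42 ± 0.28, edgeR adjusted p = 0.594).

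**Figure D4:**
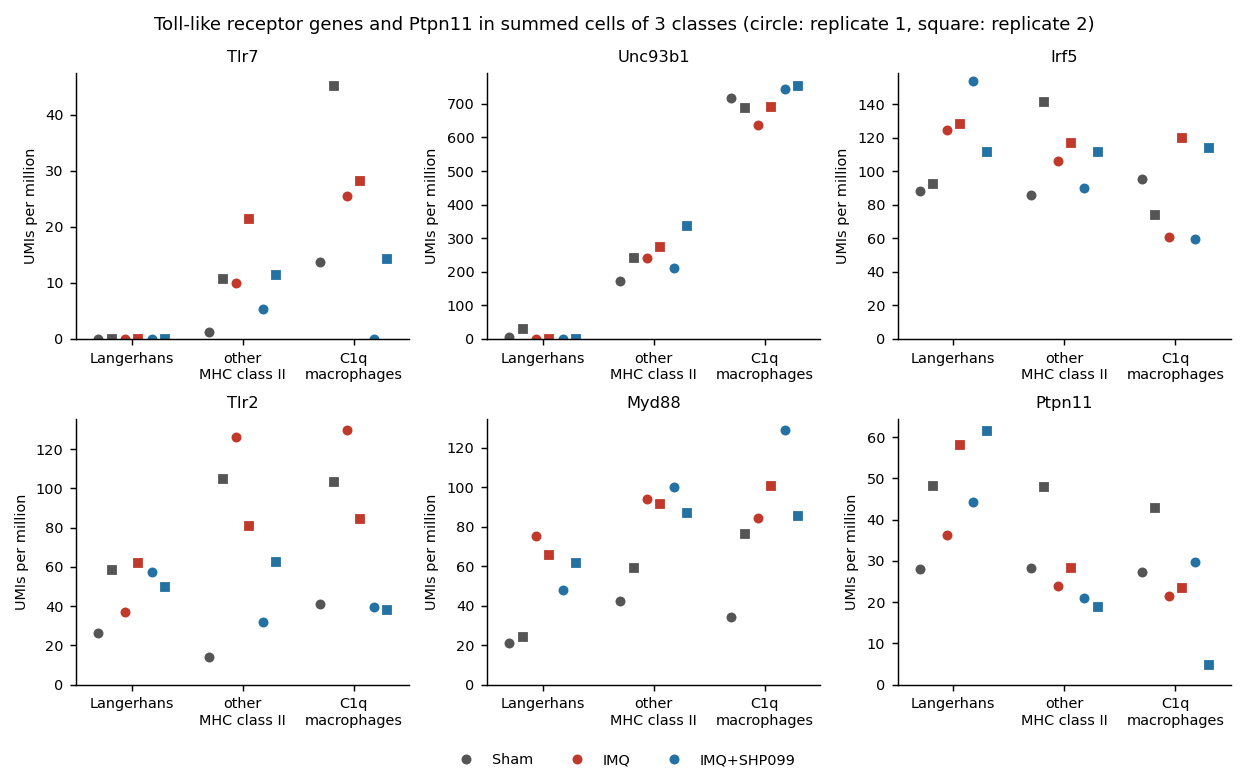
Levels of 6 genes of Toll-like receptor signalling and SHP2 in the Langerhans cells, other MHC class II cells and C1q macrophages of each library, in UMIs per 1000000 UMIs (unscaled CPM) on separate axes. Tlr7 is at 0 in every Langerhans sum, and Unc93b1 is at 0 to 30.9 there against 636 to 754 in C1q macrophages.

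No gene of the NF-kB feedback list (15 tested), the interferon-stimulated list (9), the C-type lectins (7), the junction list (11), the ERK feedback list (5), the immediate early list (14) or the cell cycle list (18) passed in IMQ against Sham. Their median log2 fold changes were 0.19, 0.16, −2.08, −0.28, −0.73, 0.10 and −0.01. The lectin median was the lowest, although Clec4n, which encodes Dectin-2, ran the other way at 177 and 145 CPM in the Sham libraries, 317 and 273 CPM in the IMQ libraries and 445 and 363 CPM in the IMQ+SHP099 libraries (log2 fold change 0.87 ± 0.29, edgeR adjusted p = 0.218). Nfkbia, the NF-kB inhibitor gene, stood at 991 and 1573 CPM in the Sham libraries, 2014 and 623 CPM in the IMQ libraries and 2633 and 1294 CPM in the IMQ+SHP099 libraries (log2 fold change 0.04 ± 0.53, edgeR adjusted p = 0.989). Of 7 tested genes of efferocytosis and lipid handling, Lgals3 rose and Apoe and Cd68 fell. Lgals3, which encodes the lectin galectin-3, stood at 1893 and 1053 CPM in the Sham libraries, 5727 and 4910.1 CPM in the IMQ libraries and 6039 and 5223 CPM in the IMQ+SHP099 libraries (log2 fold change 1.85 ± 0.38, edgeR adjusted p = 0.0483). Its call was lost when Sham and IMQ alone were fitted (edgeR adjusted p = 0.0982), with at least 4 Cd207 UMIs required (0.0540) and in 4 of the 6 fits with 1 library left out. Apoe, the lipid carrier gene, stood at 514 and 251 CPM in the Sham libraries, 18.3 and 39.0 CPM in the IMQ libraries and 93.0 and 36.3 CPM in the IMQ+SHP099 libraries (log2 fold change -3.79 ± 0.52, edgeR adjusted p = 0.00755), while its mean in all kept Sham cells was 4344 CPM. In all kept cells Apoe was lower in IMQ too, at 6467 and 2221 unscaled CPM in Sham and 1185 and 1111 in IMQ. The part of RNA from other cells in the Apoe fall was not tested.

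What SHP2 inhibition moved was read from IMQ+SHP099 against IMQ. Of 6881 genes, 0 (0%) passed in edgeR's quasi-likelihood test, 232 had an unadjusted p under 0.05, and DESeq2 called 0. Leaving out IMQ+SHP099 replicate 2 gave 5 calls. With 2 libraries a group, a p that misses the threshold does not show that the levels were alike. For Il1b the IMQ+SHP099 libraries stood at 5722 and 1503 CPM and the IMQ libraries at 2047 and 1415 CPM (log2 fold change 1.07 ± 0.52, edgeR adjusted p = 0.999). Plet1 and Rbp4 were a little lower with the inhibitor in both libraries, and neither difference passed (log2 fold change -0.29 ± 0.41, edgeR adjusted p = 0.999 for Plet1 and log2 fold change -0.75 ± 0.50, edgeR adjusted p = 0.999 for Rbp4). Pgf, the placental growth factor gene of the VEGF family, was higher with it, at 2297 and 2281 CPM against 1255 and 1438 CPM (log2 fold change 0.77 ± 0.29, edgeR adjusted p = 0.999). Cxcl2 was above both IMQ libraries in both IMQ+SHP099 libraries (log2 fold change 1.62 ± 0.64, edgeR adjusted p = 0.999). The list medians of IMQ+SHP099 against IMQ ran from −0.60 for the cell cycle to 0.42 for ERK feedback genes.

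IMQ+SHP099 against Sham called 73 genes (1.06%), 48 higher (0.698%) and 25 lower (0.363%), with 883 at an unadjusted p of 0.05. The contrast shares the Sham libraries with IMQ against Sham, so the 50 genes called in both (58.1% of the IMQ calls and 68.5% of these) are no independent agreement. Leaving out IMQ+SHP099 replicate 1 left 6 calls, and leaving out Sham replicate 1, Sham replicate 2, IMQ replicate 1 or IMQ replicate 2 gave 42, 173, 30 and 28. Il1b was 32.1-fold above Sham (log2 fold change 5.00 ± 0.62, edgeR adjusted p = 0.00487), Plet1 25-fold (log2 fold change 4.65 ± 0.51, edgeR adjusted p = 0.00329) and Rbp4 47.3-fold (log2 fold change 5.56 ± 0.67, edgeR adjusted p = 0.00487). Tnfrsf9, which encodes the costimulatory receptor 4-1BB, stood at 32.9 and 27.2 CPM in the Sham libraries, 156 and 181 CPM in the IMQ libraries and 477 and 310.3 CPM in the IMQ+SHP099 libraries (log2 fold change 3.69 ± 0.36, edgeR adjusted p = 0.00275 against Sham). Pgf stood at 271 and 269 CPM in the Sham libraries, 1255 and 1438 CPM in the IMQ libraries and 2297 and 2281 CPM in the IMQ+SHP099 libraries (log2 fold change 3.08 ± 0.32, edgeR adjusted p = 0.00295 against Sham). Both were above Sham in every treated library, and for both the IMQ libraries lay between Sham and IMQ+SHP099. Capg, an actin-capping protein gene, stood at 46.4 and 69.6 CPM in the Sham libraries, 431 and 329 CPM in the IMQ libraries and 521 and 330.4 CPM in the IMQ+SHP099 libraries (log2 fold change 2.92 ± 0.37, edgeR adjusted p = 0.00521 against Sham). Hilpda, a lipid droplet gene, and Ppa1, a pyrophosphatase gene, rose 7.66-fold and 7.54-fold (edgeR adjusted p = 0.0209 and 0.00390).

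Ramp1, the partner gene of the receptor for the neuropeptide CGRP, had the largest fall against Sham among the genes named by size and stood at 252 and 136 CPM in the Sham libraries, 81.4 and 39.0 CPM in the IMQ libraries and 17.1 and 24.2 CPM in the IMQ+SHP099 libraries (log2 fold change -3.36 ± 0.49, edgeR adjusted p = 0.0109 against Sham). H2-M5 and Pcdh7 fell again (log2 fold change -2.78 ± 0.40, edgeR adjusted p = 0.00976 and log2 fold change -2.53 ± 0.40, edgeR adjusted p = 0.0165). Cxcl10, an interferon-induced chemokine gene, was lower than in Sham at 6.64 and 4.03 CPM against 105 and 30.3 CPM (log2 fold change -3.54 ± 0.68, edgeR adjusted p = 0.0383). Cd80 rose again (log2 fold change 3.22 ± 0.60, edgeR adjusted p = 0.0317), and of the sensing and receptor lists no gene passed. P2rx2, Adcy7, Ptpn18, a phosphatase gene, and Dock4, which encodes a Rac activator, completed the named genes that fell. When IMQ+SHP099 and Sham alone were fitted, Adcy7, Dock4, Ptpn18, Apoe and Lgals3 lost their call (edgeR adjusted p = 0.0509 for Apoe to 0.0949 for Lgals3). Dock4 also lost it in DESeq2 (adjusted p = 0.0781), Cxcl10 with a mitochondrial limit of 5% (edgeR adjusted p = 0.0805) and Cd80 with at least 1 Cd207 UMI required (0.0576) or a keratin limit of 5 per 10000 (0.0581). With 1 library left out, the call against Sham was lost in 2 of the 6 fits for H2-M5 and 4 for Pcdh7. It was lost in 3 fits for Ramp1, Hilpda and Cd80, 5 for Cxcl10 and 6 for Dock4. For Rbp4, Plet1, Capg and Ppa1 it was lost in 1 fit.

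Cells with a Ccr7 UMI, the receptor gene of lymph node homing, made up 2.73% and 16.0% of Langerhans cells in Sham skin, 19.7% and 5.88% in IMQ skin and 28.0% and 18.2% in IMQ+SHP099 skin, that is 3 of 110, 4 of 25, 13 of 66, 3 of 51, 30 of 107 and 4 of 22 cells. After thinning the shares were 2.0% and 8.0%, 13.8% and 4.00%, and 21.2% and 13.6%. Both IMQ+SHP099 libraries exceeded both Sham libraries, by a mean of 13.7 percentage points (12.4 after thinning, exact two-sided permutation test, p = 0.333, the smallest possible), whereas IMQ overlapped Sham. The difference ran from 7.11 percentage points without Sham replicate 1 to 20.4 without Sham replicate 2. Keratin-rich and collagen-rich cells had a Ccr7 UMI in at most 0.461% of a library after thinning. Among other MHC class II cells the thinned share was 23.3% and 10.8% in Sham skin and 4.08% and 10.3% in IMQ skin. In IMQ+SHP099 skin it was 40% (8 of 20 cells) and 4.29%, so a high share in IMQ+SHP099 replicate 1 was not particular to Langerhans cells.

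Other genes of migratory dendritic cells were compared between Ccr7-positive and other Langerhans cells of each library, as a description since cells of 1 library are not replicates and 4 of the 6 libraries held only 3 or 4 such cells. Fscn1, which encodes the actin bundler fascin, stood at 646 against 0 unscaled CPM in cells with and without Ccr7 of IMQ replicate 1, and at 383 against 2.46 in IMQ+SHP099 replicate 1, while Sham replicate 1 held 0 in both. The chemokine gene Ccl22 stood at 1511 against 90.2 and 1834 against 138. Ccl22, Cd83, Cd40, Cd80 and Traf1 were higher in the Ccr7-positive cells in 6 of 6 libraries, Fscn1, Il4i1, Socs2 and Cd86 in 5 of 6, Ccl17, Cacnb3 and Relb in 4 of 6 and Icosl in 2 of 6. In IMQ+SHP099 replicate 2 Ccl17 stood at 0 against 117, Socs2 at 0 against 14.6 and Relb at 36.9 against 48.6. The adhesion gene Epcam, which the rule used, was lower in the Ccr7-positive cells of 5 libraries and higher in those of Sham replicate 2 (1119 against 887). Plet1 was higher in the Ccr7-positive cells in 0 of 6 libraries and Il1b in 4 of 6. A UMI of the proliferation genes Mki67 or Top2a was found, after thinning, in 10.0% and 16.0% of Sham, 9.23% and 12% of IMQ and 12.5% and 4.55% of IMQ+SHP099 Langerhans cells, with all groups overlapping.

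The change from Sham to IMQ in the Langerhans cell sums differed from that in sums of other antigen-presenting cells in a few genes. The test compared the log2 fold change of IMQ against Sham between Langerhans cells and the other MHC class II cells of the same libraries, with the library as a block. That second class was set by limits alone and can hold several cell types. It numbered 157 and 740 cells in Sham and 123 and 138 in IMQ. Its Lyz2 level was 1444 and 4838 unscaled CPM in Sham and 5928 and 5851 in IMQ. The part that the make-up of the class had in these differences was not tested. Of 8375 genes, 22 (0.263%) passed, 13 with a more positive change in Langerhans cells (0.155%) and 9 with a more negative one (0.107%). Leaving out 1 library gave 8 to 118 calls, the lowest without IMQ replicate 2 and the highest without Sham replicate 2, and 9, 96 and 51 without IMQ replicate 1, Sham replicate 1 and IMQ+SHP099 replicate 2.

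Il1b showed the smallest p. In other MHC class II cells it stood at 892 and 1115 CPM in Sham and 919.8 and 508 CPM in IMQ. In Langerhans cells, scaled apart from that class, it rose from 111 and 115 to 2047 and 1415 CPM (difference of log2 fold changes 4.46 ± 0.27, edgeR adjusted p = 8.41e-05). The other MHC class II cells thus held more Il1b than Langerhans cells in Sham skin and less in IMQ skin. The thinned shares with an Il1b UMI were 27.9% and 49.3% of other MHC class II cells in Sham and 40.8% and 41.4% in IMQ. Plet1 went from 57.3 and 43.9 to 48.6 and 35.9 CPM in the other cells (difference 5.43 ± 0.50, edgeR adjusted p = 0.00257). For Ass1 the difference was 4.08 ± 0.48, edgeR adjusted p = 0.0117, for Capg 2.87 ± 0.33, edgeR adjusted p = 0.0117 and for Cdkn1a, which encodes the cell cycle inhibitor p21, 2.06 ± 0.26, edgeR adjusted p = 0.0148. The change of Cdkn1a within Langerhans cells did not pass (edgeR adjusted p = 0.218). Of these 5, Il1b, Plet1 and Ass1 passed whichever library was left out.

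In the opposite direction were Dok3, an adaptor gene that dampens immune receptor signalling (difference -2.70 ± 0.38, edgeR adjusted p = 0.0270), the G protein subunit gene Gng2 (-2.07 ± 0.35, edgeR adjusted p = 0.0474) and Cd68 (-1.98 ± 0.33, edgeR adjusted p = 0.0474). Dok3 went from 209.6 and 154 to 143 and 127 CPM in Langerhans cells, where its change did not pass (log2 fold change −0.44, edgeR adjusted p = 0.583), and from 23.8 and 9.61 to 64.1 and 80.6 CPM in the other cells. Gng2 fell in Langerhans cells and stood at 105 and 129.7 CPM in the other cells of Sham and 169 and 152 CPM in those of IMQ. Cd68 fell in Langerhans cells and stood at 222 and 225 CPM in the other cells of Sham and 235 and 279.7 CPM in those of IMQ. None of these 3 passed without IMQ replicate 1 or without IMQ replicate 2. Mfge8, which the rule used, stood at 53.9 and 25.4 unscaled CPM in the other MHC class II cells of Sham, 77.0 and 623 in IMQ skin and 3211 and 199 in IMQ+SHP099 skin. The 31 such cells of IMQ+SHP099 replicate 1 thus held far more of it than those of Sham, and the part of Langerhans RNA in this class was not tested.

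The C1q macrophages, whose limits do not exclude the other MHC class II cells so that the classes can share barcodes, were compared in the same way. They numbered 46 and 314 cells in Sham and 71 and 62 in IMQ. H2-Aa stood in them at 5622 and 5452 unscaled CPM in Sham and 312 and 1662 in IMQ. The part that the make-up of this class had in the differences was not tested either. Of 6906 genes, 13 (0.188%) passed, 8 more positive (0.116%) and 5 more negative (0.0724%) in Langerhans cells, and 3 to 130 when a library was left out (3 without IMQ replicate 1, 130 without Sham replicate 1, 90 without Sham replicate 2, 27 and 51 without IMQ+SHP099 replicates 1 and 2). Ly6e, an interferon-inducible surface protein gene, went from 208 and 260.2 to 454 and 544 CPM in Langerhans cells and from 2484 and 2871 to 600.4 and 930.3 CPM in macrophages (difference 2.88 ± 0.42, edgeR adjusted p = 0.0189), and its change within Langerhans cells did not pass (edgeR adjusted p = 0.196). Lgals3 went from 3212 and 1142 to 1751 and 1649 CPM in macrophages, while it rose in Langerhans cells (difference 2.03 ± 0.32, edgeR adjusted p = 0.0358). Plet1, Ass1 and Capg differed here too (5.80 ± 0.98, edgeR adjusted p = 0.0365, 4.67 ± 0.81, edgeR adjusted p = 0.0365 and 2.59 ± 0.47, edgeR adjusted p = 0.0490). Plet1 in macrophages stood at 0 and 12.9 CPM in Sham and 8.34 and 9.62 CPM in IMQ, and without Sham replicate 2 its difference turned to −0.78. For Il1b the difference from macrophages missed the threshold (2.69 ± 0.64, edgeR adjusted p = 0.130). More negative in Langerhans cells were the stress-response gene Ndrg1 (-2.63 ± 0.45, edgeR adjusted p = 0.0365), the engulfment gene Elmo1 (-2.57 ± 0.45, edgeR adjusted p = 0.0365) and Arhgap27, which encodes a GTPase-activating protein (-3.79 ± 0.66, edgeR adjusted p = 0.0365). None of these 3 passed within Langerhans cells (edgeR adjusted p = 0.299, 0.0957 and 0.462). In macrophages Ndrg1 went from 47.5 and 74.3 to 202 and 233 CPM, Elmo1 from 63.3 and 50.1 to 127 and 127 CPM and Arhgap27 from 7.91 and 3.79 to 29.2 and 33.7 CPM. Apoe and A4galt, a glycosyltransferase gene, did not meet the levels that naming required and were chosen after their values were seen. Their differences (-3.63 ± 0.49, edgeR adjusted p = 0.00966 and 9.34 ± 1.14, edgeR adjusted p = 0.00966) passed in each of the 4 fits that left out a Sham or IMQ library. Apoe fell in Langerhans cells and stood at 6622 and 8389.6 CPM in macrophages of Sham and 4639 and 9353 CPM in those of IMQ. A4galt went from 1.5 and 3.03 to 33.5 and 40.3 CPM in Langerhans cells and from 55.4 and 56.1 to 0 and 2.40 CPM in macrophages. Its low levels rest on 1 and 1 UMIs in Sham Langerhans cells and 0 and 1 UMIs in IMQ macrophages. In Langerhans cells the ratio of IMQ to Sham was 18.0 with a counting interval of 4.81 to 152. No gene passed for the effect of IMQ+SHP099 against IMQ in either comparison, with 349 (other MHC class II cells) and 247 (macrophages) at an unadjusted p of 0.05 in edgeR.

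**Figure D5:**
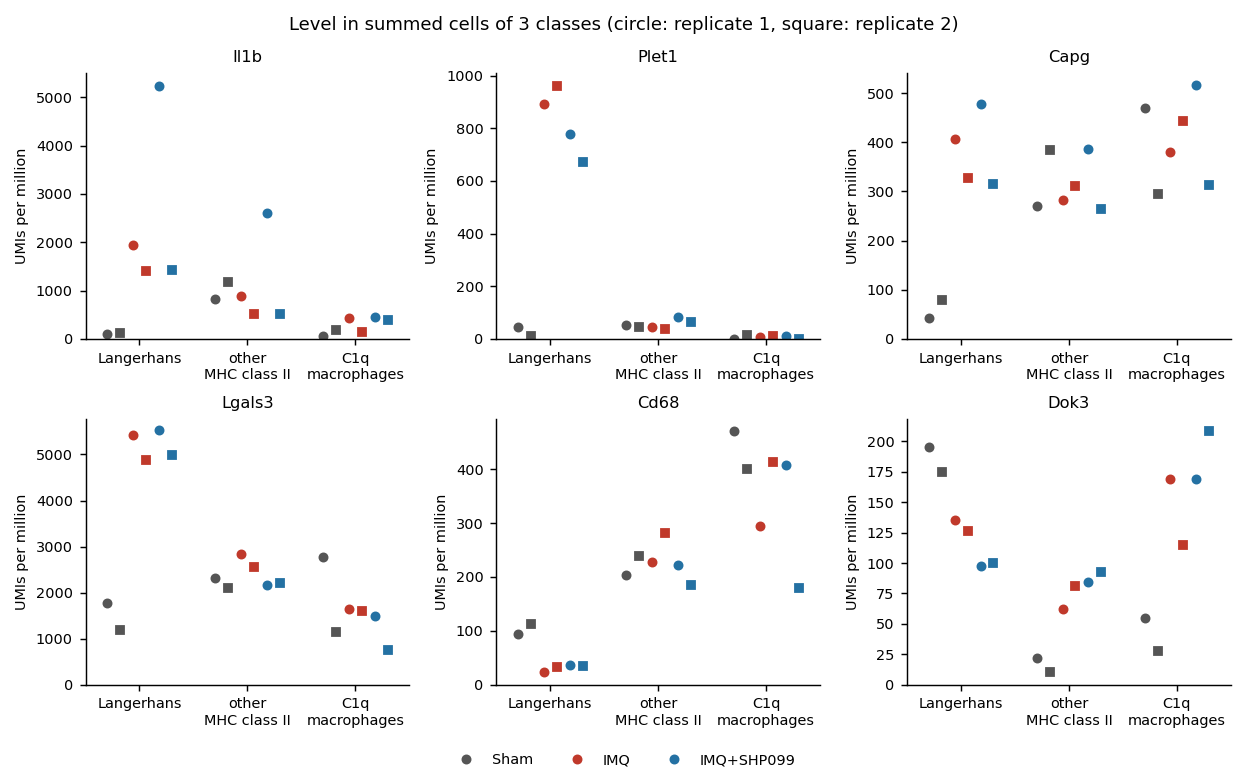
Levels of Il1b, Plet1, Capg, Lgals3, Cd68 and Dok3 in the Langerhans cells, other MHC class II cells and C1q macrophages of each library, in UMIs per 1000000 UMIs (unscaled CPM) on separate axes. Il1b and Plet1 are low in Sham Langerhans cells and high in all 4 treated sums, whereas Il1b in other MHC class II cells is already present in Sham.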

How the data were processed

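For each of 6 libraries the deposited matrix gives unnormalized UMI counts, which the authors made with CellRanger 3.1.0 (per the labels) against GRCm38, from pooled skin. The files list 31053 genes, and 0 columns belonged to no sample.

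Cells were kept below limits of 100000 UMIs, 6500 genes and 10% of UMIs from mitochondrial genes. Members, other MHC class II cells and C1q macrophages were chosen per cell by fixed limits on UMI counts, with no clustering and no doublet removal (Python 3.11.15, scanpy 1.11.5, numpy 2.4.6, scipy 1.17.1, pandas 2.3.3). The members and the gene lists were chosen with earlier results of these data known.

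UMIs were summed per library and class. edgeR 4.0.16 (R 4.3.3) fitted all 6 libraries by the quasi-likelihood method with TMM and filterByExpr on the group alone, at a Benjamini-Hochberg adjusted p under 0.05, and the standard error is the log2 fold change over the root of F. The script was tested on simulated data. Differences between classes were interaction terms with the library as a block. Levels are TMM-scaled CPM, with each class of cells scaled on its own, and unscaled where so named, in UMIs per 1000000. Shares carry exact Clopper-Pearson 95% intervals (counting error only) and were compared with an exact two-sided permutation test. For unequal depth each cell was thinned to 3000 UMIs. Limits on counts of 0 use a floor of 3 counts.

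Genes named in each contrast were the 10 per direction with the largest change among those past the threshold, with a mean of at least 50 CPM, no overlap between groups and, in the higher group, a level at least that of all kept cells, leaving out markers of other cell types. In the interactions, up to 5 per direction were named by the smallest p among genes that met the same conditions on level, overlap and markers in Langerhans cells. From the lists, members past the threshold, the 3 most abundant and a fixed set including Ptpn11, Tlr7, Il1b and Ccr7 were eligible. Promoters are RefSeq windows of GRCm38.p6, found for 3 of the 3 genes shown. Alternatives were DESeq2 1.42.0, other scaling and filters, other limits on the cells, left-out libraries and a replicate block. Some genes that these rules name are not reported here.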

Additional observations from a re-analysis of the deposited data

Results flagged for a closer look

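In the tests below, the effect of IMQ against Sham differed between Langerhans cells and a second class of cells in the same libraries, by a test of the difference itself (edgeR's interaction term with the library as a block, Benjamini-Hochberg adjusted). All values are differences of log2 fold changes, Langerhans cells minus the other class, and a difference can come from a change in either class. The part that the make-up of each class had in them was not tested.

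Against other MHC class II cells the differences were 4.46 for Il1b, 5.43 for Plet1, 4.08 for Ass1, 2.87 for Capg and 2.06 for Cdkn1a, and −2.70 for Dok3, −2.07 for Gng2 and −1.98 for Cd68. Il1b, Plet1 and Ass1 kept their call whichever of the 6 libraries was left out. Capg lost it without IMQ replicate 1, and Cdkn1a, Dok3, Gng2 and Cd68 lost it without either IMQ replicate.

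Against C1q macrophages they were 2.88 for Ly6e, 2.03 for Lgals3, 5.80 for Plet1, 4.67 for Ass1 and 2.59 for Capg, and −2.63 for Ndrg1, −2.57 for Elmo1 and −3.79 for Arhgap27. All 8 lost their call without IMQ replicate 1, whereas Apoe (−3.63) and A4galt (9.34), which did not meet the levels required for naming, kept it in each fit that left out a Sham or IMQ library. The macrophage sums hold few Plet1 UMIs, and without Sham replicate 2 the Plet1 difference was −0.78. The A4galt difference rests on 1 and 1 UMIs in Sham Langerhans cells and 0 and 1 UMIs in IMQ macrophages. The part that RNA from other cells had in these differences was not tested.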

How the results depend on the processing

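With no filter on low counts the calls were 381 for IMQ against Sham, 39 for IMQ+SHP099 against IMQ and 373 for IMQ+SHP099 against Sham, and 230 and 108 for the differences from other MHC class II cells and from C1q macrophages. Fitting only the 2 groups gave 44 for IMQ+SHP099 against Sham, fitting only Sham and IMQ gave 4 for the difference from other MHC class II cells, and a keratin limit of 5 per 10000 gave 14. Leaving out 1 library gave 4 to 192, 0 to 5 and 6 to 173 calls in the 3 contrasts and 8 to 118 and 3 to 130 in the 2 differences. The Plet1 difference from macrophages was −0.78 without Sham replicate 2 and 7.15 without Sham replicate 1. DESeq2 called 69, 0 and 83 genes. Of 564 values for named genes under other settings, 523 kept direction and call, 41 lost the call and 0 reversed. Of 282 with 1 library left out, 166 kept the call and 116 lost it.

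The difference in the share of Langerhans cells among kept cells, −0.115 for IMQ minus Sham, was 3.28 per 100 keratin-rich cells, 0.481 per 100 with no keratin limit, −1.51 of kept cells with no keratin limit, −0.854 over cells without keratin, −1.78 over cells with a Ptprc UMI, and −0.604 to 0.374 when a library was left out. For IMQ+SHP099 minus IMQ (0.0869) the values were −1.99 and −1.68 per 100, 0.321, 1.14 and 3.11 of the other populations in that order, and −0.380 to 0.554. For IMQ+SHP099 minus Sham (−0.0278) the value was 0.287 over cells without keratin, 1.32 over cells with a Ptprc UMI, 1.29 per 100 keratin-rich cells and 0.0142 with at least 4 Cd207 UMIs, −1.19 of kept cells with no keratin limit, and −0.517 to 0.461 with a library left out. The Ccr7 share of IMQ minus Sham (3.43) ran from −3.48 to 10.3, that of IMQ+SHP099 minus IMQ (10.3) from 3.41 to 17.2 and that of IMQ+SHP099 minus Sham (13.7) from 7.11 to 20.4. The cycling share of IMQ minus Sham (6.29) was −2.38 after thinning. That of IMQ+SHP099 minus IMQ (−2.02) ran from −6.61 to 2.57, and that of IMQ+SHP099 minus Sham (4.27) was −4.48 after thinning and −1.83 to 10.4 with a library left out. The cause of these changes was not tested.

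The replicate numbers were not shown to pair the libraries (correlation of deviations 0.114, 0.034 and 0.106 across genes). A fit with the replicate block called 115, 0 and 94 genes. Depth limits the scarce genes: 22 cells and 259919 UMIs in the smallest library detect little below its floor of 11.5 UMIs per 1000000.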

Other observations

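The cells that met every limit but the keratin one were chosen by their keratin, Cd207, Epcam and Mfge8 UMIs, so their levels of such genes are a description of the limits. In Sham replicate 1, where there were 228, their summed level was 9010 unscaled CPM of Krt14, 1215 of Cd207 and 462 of Mfge8. In IMQ+SHP099 replicate 1, with 43 such cells, it was 9843 of Krt14, 1016 of Cd207 and 4260 of Mfge8. Plet1, which the limits did not use, was present in them at 366 unscaled CPM in Sham replicate 1, where the Langerhans cells held 43.3 unscaled CPM, while Il1b, not used either, stood at 7.73 there and at 1872 in IMQ+SHP099 replicate 1.

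The haemoglobin gene Hbb-bs stood at 0 UMIs in both Sham libraries of Langerhans cells, 5.58 and 7.80 CPM in IMQ and 473 and 20.1 CPM in IMQ+SHP099, against means of 712 to 1201 CPM in all kept cells, so that a single library held nearly all of it.

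Icos, which encodes a costimulatory receptor best known from T cells, had 0 UMIs in both Sham libraries of Langerhans cells and stood at 27.1 and 24.7 CPM in IMQ and 51.2 and 84.6 CPM in IMQ+SHP099 (edgeR adjusted p = 0.0206 and 0.00507 against Sham). It lay below the limit of 50 CPM for naming and was chosen after its values were seen. T cell markers summed to 29.9 to 191 CPM in the Langerhans cells of Sham, 28.6 to 65.4 CPM in IMQ and 28.2 to 84.4 CPM in IMQ+SHP099, and their part in this value was not tested.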
